A study of Mus musculus with 14 samples.

Results

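AMP-activated protein kinase (AMPK) is the enzyme by which a cell answers a shortage of energy, and 7 genes were followed here: those of its catalytic subunits alpha1 (Prkaa1) and alpha2 (Prkaa2), its scaffold subunits beta1 (Prkab1) and beta2 (Prkab2), its nucleotide-sensing subunits gamma1 (Prkag1) and gamma2 (Prkag2), and LKB1 (Stk11), the kinase that switches AMPK on. They were taken by gene symbol, with earlier results of these data known. All 7 of 7 were among the 13219 symbols measured in the hearts of the AAV experiment. None of the 7 was among the 1230 symbols listed for knock-out and wild-type hearts. Where a symbol had several transcript rows, the row with the highest mean level was used.

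Each AMPK complex holds 1 alpha, 1 beta and 1 gamma subunit. AMP and ADP bind the gamma subunit when ATP falls, the beta subunit ties the complex together and binds glycogen, and LKB1 phosphorylates the activation loop of the alpha subunit. Active AMPK favours glucose uptake and fatty acid oxidation and holds back lipid and protein synthesis. In the heart, alpha2 is known as the main catalytic isoform, and mutations of the gamma2 gene are a known cause of human cardiomyopathy with glycogen storage. Much of the regulation of AMPK is by phosphorylation, which transcript levels do not show.

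The study asked what the secreted protein CTRP9 (gene C1qtnf9) does in the heart under a high-fat diet (HFD), and whole hearts were measured by bulk mRNA sequencing with single-end reads of 50 bases. In the AAV experiment, 4 hearts of mice given AAV-CTRP9 (CTRP9_609, CTRP9_610, CTRP9_611 and CTRP9_620) were set against 3 hearts of mice given AAV-Luc (Luc_614, Luc_615 and Luc_624). The sample titles of these 3 AAV-Luc hearts begin with CTRP9, while their descriptions, treatment labels and column headers name luciferase. The vector was AAV9 at 1e12 viral genomes into the tail vein, and a TnT promoter, active in cardiomyocytes, drove either mouse CTRP9 or Renilla luciferase, so that both groups carried a virus. In the knock-out experiment, 4 hearts of homozygous CTRP9 knock-out mice (KO) were set against 3 hearts of wild-type littermates (WT), with no virus. The methods give male C57BL/6J mice, aged 7 to 9 weeks at the start and fed for 12 weeks with 60% of the energy as fat, and a fast before the hearts were taken. All 4 groups were on this diet, so the effect of the diet itself is not in these values.

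Depth and composition of the libraries set the precision. CPM are the reads of a gene scaled to a library size. The sizes behind the deposited CPM were 23626917 to 28509220 in AAV-CTRP9 hearts and 26342180 to 30262264 in AAV-Luc hearts. The reads summed over all transcript rows differed from them, at 23498500 to 29061002 in AAV-CTRP9 hearts and 24982135 to 29369196 in AAV-Luc hearts. C1qtnf9, the gene carried by the vector, was at 44.3 to 109 CPM in AAV-CTRP9 hearts and at 16.1 to 26.3 CPM in AAV-Luc hearts. The library Luc_614 stood apart: across all symbols, its deviation from the mean of the 7 hearts followed the GC content of the transcript (Spearman rho 0.517, against -0.274 to -0.108 in the other 6 libraries). Listed markers of cardiomyocytes (8 of 8 measured) summed to 21232 to 21653 CPM in AAV-CTRP9 hearts and 18695 to 20651 CPM in AAV-Luc hearts. Markers of macrophages and leukocytes (8 of 8) summed to 102 to 111 CPM in AAV-CTRP9 hearts and 151 to 154 CPM in AAV-Luc hearts, and markers of fibroblasts (6 of 6) to 321 to 357 CPM in AAV-CTRP9 hearts and 384 to 434 CPM in AAV-Luc hearts. Markers of erythroid cells (5 of 5) reached 724 CPM in Luc_624 against 118 to 272 CPM in the other 6 hearts, and none of the 5 adipocyte markers was in the table. In bulk hearts, fewer cells of a type and less RNA per cell cannot be told apart, and the part of these shifts in the values below was not tested.

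The isoforms of a subunit are similar proteins from different genes, and a read of 50 bases can only be given to one of them where their sequences differ. In the transcripts used (GENCODE M21 on GRCm38), no run of 50 bases was shared between any member and a gene of its family. The longest runs that isoforms shared are printed in capitals within their coding sequence, 5′ to 3′, because they show how close each pair comes to the read length. The alpha pair shares 35 bases near the start of the coding sequence, the beta pair 23 bases and the gamma pair 15 bases.
Prkaa2: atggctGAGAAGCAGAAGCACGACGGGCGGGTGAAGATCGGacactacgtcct
Prkaa1: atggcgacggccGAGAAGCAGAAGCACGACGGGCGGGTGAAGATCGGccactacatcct
Prkab2: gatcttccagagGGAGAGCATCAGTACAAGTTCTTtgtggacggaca
Prkab1: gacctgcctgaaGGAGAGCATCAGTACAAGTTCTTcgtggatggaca
Prkag2: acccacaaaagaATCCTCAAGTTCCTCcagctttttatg
Prkag1: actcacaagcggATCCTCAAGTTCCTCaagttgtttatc
A read could therefore be placed between isoforms by at least some of its bases, at any position.

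Overlap with genes on the opposite strand was larger. Of the runs of 50 bases in the Prkag1 transcript, 30.9% (496 of 1603) also lie in B130046B21Rik on the other strand, against 7.27% of those of Stk11 (183, with Cbarp) and 0.213% of those of Prkag2 (7, with Prkag2os2). The libraries were strand-specific, but the sources used here do not say how strand entered the counting. B130046B21Rik had 33.4, 32.7, 35.0 and 34.4 CPM in AAV-CTRP9 hearts, against 36.7, 34.2 and 28.8 CPM in AAV-Luc hearts. Prkag1, given below, was low in the same heart, Luc_624, and high in the same heart, Luc_614. Once each gene was centred on its mean, the 2 profiles differed by a root mean square of 0.018 on the log2 CPM scale over the 7 hearts, and whether this pair shared reads was not tested. By this measure B130046B21Rik ranked 4 among 13125 symbols with a mean of at least 1 CPM, with Wdtc1, Gcdh and Arl6ip5 closer to Prkag1. The profiles of Cbarp and Stk11 differed by 0.22, and those of Prkag2os2 and Prkag2 by 0.29. Cbarp and Prkag2os2 had lower levels, 4.50 to 7.41 CPM and 0.883 to 1.86 CPM.

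The catalytic subunits were described first. Prkaa2 (chr4:105029874-105109890, minus strand, GRCm38) had 78.5, 75.6, 82.2 and 74.4 CPM in AAV-CTRP9 hearts, against 52.8, 74.1 and 79.4 CPM in AAV-Luc hearts. Luc_614 alone was low, and the other 2 AAV-Luc hearts lay within or just under the AAV-CTRP9 values. The means were 77.7 ± 3.47 CPM (SD, n = 4) and 68.8 ± 14.1 CPM (SD, n = 3), with a log2 fold change of 0.20 (SE 0.12, limma adjusted p = 0.664). Without Luc_614, the AAV-Luc mean was 76.7 CPM and the log2 fold change 0.02 (SE 0.08, limma adjusted p = 0.956).

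Prkaa1 (chr15:5143861-5181899, plus strand), the more widely expressed catalytic isoform, had 10.2, 11.8, 11.1 and 11.1 CPM in AAV-CTRP9 hearts, against 10.7, 11.6 and 12.03 CPM in AAV-Luc hearts. The groups overlapped along nearly their whole range. Its log2 fold change was -0.05 (SE 0.10, limma adjusted p = 0.917), and with 241 to 333 reads a heart its SD over the hearts, 0.083 on the log2 CPM scale, was about that of counting alone (0.082). The alpha genes differed in the library that stood apart. Both have AU-rich transcripts (GC content 40.7% for Prkaa2 and 40.2% for Prkaa1), and the trend with GC content and length placed Prkaa2 0.55 and Prkaa1 0.45 log2 units low in Luc_614. Measured in Luc_614, Prkaa2 was 0.47 below its mean over the 7 hearts and Prkaa1 0.071 below it. With this trend removed from every library, the log2 fold change was 0.00 for Prkaa2 (limma adjusted p = 0.99) and -0.20 for Prkaa1 (limma adjusted p = 0.584).

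The scaffold subunits gave the steadiest gene and one of the most variable genes of the set. Prkab1 (chr5:116013586-116024508, minus strand) had 23.8, 25.1, 24.9 and 24.0 CPM in AAV-CTRP9 hearts, against 25.3, 23.8 and 23.3 CPM in AAV-Luc hearts. All 7 hearts lay within 0.12 on the log2 CPM scale. Its SD over the hearts, 0.046, was smaller than that of all but 1.03% of the 1942 genes of like level (mean log2 CPM within 0.5), and under the 0.056 that counting alone gives. The log2 fold change was 0.02 (SE 0.08, limma adjusted p = 0.966).

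Prkab2 (chr3:97658193-97673812, plus strand), the beta isoform best known from striated muscle, had 38.6, 37.9, 32.2 and 26.7 CPM in AAV-CTRP9 hearts, against 33.3, 32.0 and 35.9 CPM in AAV-Luc hearts. The AAV-Luc hearts lay inside the range of the AAV-CTRP9 hearts, of which CTRP9_609 and CTRP9_610 were highest and CTRP9_620 lowest. The means were 33.9 ± 5.55 CPM (SD, n = 4) and 33.7 ± 1.98 CPM (SD, n = 3), and the log2 fold change was -0.01 (SE 0.12, limma adjusted p = 0.994). The SD over all hearts, 0.18 on the log2 CPM scale, was larger than that of 80.1% of the 1424 genes of like level and larger than the 0.048 of counting alone. Markers of smooth muscle cells and pericytes (6 of 6 measured) summed to 428, 427, 376 and 356 CPM in CTRP9_609, CTRP9_610, CTRP9_611 and CTRP9_620, and to 340, 380 and 432 CPM in AAV-Luc hearts. Their part in the spread of Prkab2 was not tested.

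Of the gamma subunits, Prkag1 (chr15:98812797-98831521, minus strand) had 37.8, 36.5, 38.3 and 38.7 CPM in AAV-CTRP9 hearts, against 40.1, 38.1 and 31.8 CPM in AAV-Luc hearts. Luc_624 alone was low, the library with the highest erythroid and the lowest cardiomyocyte marker sum. The log2 fold change was 0.05 (SE 0.09, limma adjusted p = 0.894), and it turned to -0.05 without Luc_624.

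Prkag2 (chr5:24862744-25100642, minus strand) had 16.0, 16.3, 16.7 and 13.6 CPM in AAV-CTRP9 hearts, against 17.8, 19.3 and 14.8 CPM in AAV-Luc hearts. Luc_614 and Luc_615 lay above all AAV-CTRP9 hearts, while Luc_624 lay among them. The means were 15.6 ± 1.36 CPM (SD, n = 4) and 17.3 ± 2.28 CPM (SD, n = 3), with a log2 fold change of -0.14 (SE 0.11, limma adjusted p = 0.739). It was -0.06 without Luc_615 and -0.08 without CTRP9_620, and -0.25 without Luc_624. Prkag2 is transcribed from several start sites, which lie at 25100642, 24995753 and 24908469 for the 3 rows of the table. Most of the exonic bases of the 2 shorter transcripts are also in the longest, 82.6% and 96.5%. The row with the second start site had 81.7% to 86.8% of the reads of the longest in AAV-CTRP9 hearts and 79.4% to 82.8% in AAV-Luc hearts, and the row with the third had 63.9% to 71.9% in AAV-CTRP9 hearts and 63.1% to 65.9% in AAV-Luc hearts. A read in an exon shared by several transcripts was counted for each of them, as the 2 rows of Prkab1 show, which differed by at most 1 read in any heart. These rows therefore do not give the separate levels of the isoforms.

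Stk11 (chr10:80115803-80130682, plus strand), the gene of LKB1, had 38.5, 39.3, 35.4 and 39.1 CPM in AAV-CTRP9 hearts, against 39.7, 41.6 and 37.6 CPM in AAV-Luc hearts. The groups overlapped, with CTRP9_611 lowest and Luc_615 highest. The log2 fold change was -0.06 (SE 0.08, limma adjusted p = 0.865). Its SD over the hearts was larger than that of 10.3% of the 1247 genes of like level.

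**Figure D1:**
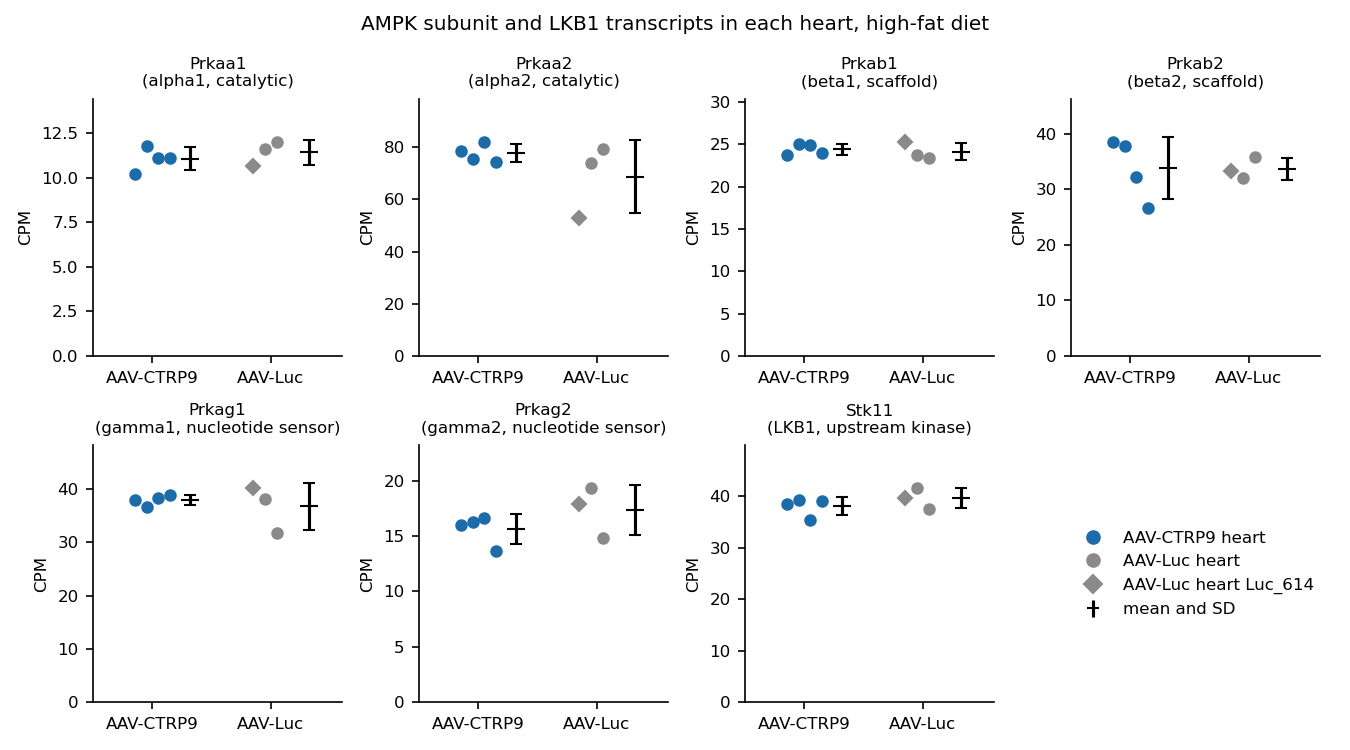
CPM of each gene (vertical axes, from 0) in 4 AAV-CTRP9 hearts (blue, left) and 3 AAV-Luc hearts (grey, right), 1 point per heart, with the mean and SD of each group beside the points and Luc_614 drawn as a diamond. The groups overlap for all 7 genes. Prkaa2 is low in Luc_614 alone (52.8 CPM), Prkag1 in Luc_624 alone (31.8 CPM), and Prkab2 spreads from 26.7 to 38.6 CPM among AAV-CTRP9 hearts.

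Across all 7 genes, cardiac CTRP9 overexpression thus went with no detected change of any AMPK subunit or of LKB1. None of the 7 passed an adjusted p of 0.05, where 0.0151% of all symbols did, and none reached an unadjusted p of 0.05 (limma), where 8.67% of all symbols did. The edgeR and DESeq2 tests on recovered reads also gave 0 of 7 by either measure. Of all 13219 symbols, edgeR called 2 and DESeq2 61 at the adjusted threshold, and 1087 and 919 reached the unadjusted one. The groups overlapped for 7 of 7 members, while they did not overlap for 9.02% of all symbols. The median log2 fold change of the members was -0.01, against 0.03 over all symbols.

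The intervals give the folds that the values leave possible for each gene, without adjustment for the number of symbols. They are not limits of what the adjusted threshold would have called. The 95% limma intervals of the fold (AAV-CTRP9 over AAV-Luc) ran from 0.901 to 1.14 for Prkab1, 0.854 to 1.08 for Stk11, 0.838 to 1.12 for Prkaa1 and 0.903 to 1.19 for Prkag1. They were wider for the genes that varied more between hearts: 0.822 to 1.203 for Prkab2, 0.761 to 1.08 for Prkag2 and 0.947 to 1.39 for Prkaa2. C1qtnf9, by contrast, had a fold of 3.32 (0.257 SE on the log2 scale, limma adjusted p = 0.106, and 0.000846 without Luc_614). Only leaving out Luc_624 brought members under an unadjusted p of 0.05: Prkaa2 with a log2 fold change of 0.31 (limma adjusted p = 0.344) and Prkag2 with -0.25 (limma adjusted p = 0.381).

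**Figure D2:**
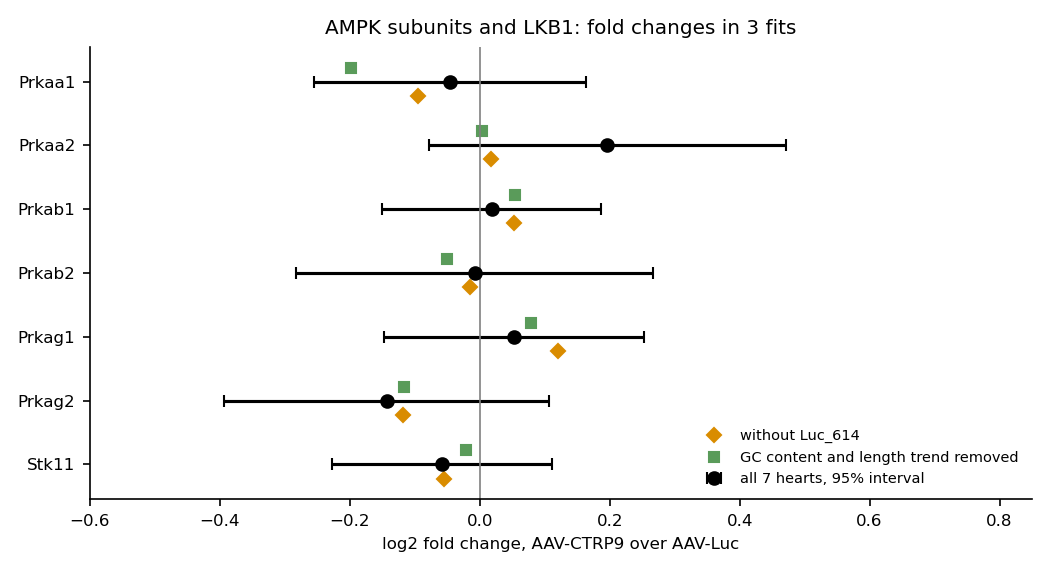
Log2 fold change of each gene, AAV-CTRP9 over AAV-Luc (horizontal axis). Black points and bars are the limma estimate and its 95% interval over all 7 hearts, orange diamonds the estimate without Luc_614, and green squares the estimate with the trend of GC content and length removed. Each black bar crosses 0, and the estimate of Prkaa2 moves from 0.20 over all hearts to 0.02 and 0.00 in the other fits.

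Levels of different genes can be compared only per length of transcript, so CPM was divided by the length in kilobases. Over the 7 hearts, Prkag1 was highest at 22.6 ± 1.62 CPM per kilobase (SD, n = 7), followed by Stk11 at 15.1 ± 0.741, Prkab1 at 11.6 ± 0.369 and Prkaa2 at 9.27 ± 1.22. Prkab2 had 6.75 ± 0.816, Prkag2 4.91 ± 0.559 and Prkaa1 2.41 ± 0.137 CPM per kilobase. Each gene was above the next in 7 of 7 hearts, except that Prkaa2 was above Prkab2 in 6 of 7. In Luc_614 the 2 were level, with 6.62 and 6.66 CPM per kilobase.

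Within each family, one isoform led in every heart. The level of Prkaa2 per kilobase was 2.89 to 4.48 times that of Prkaa1, and that of Prkag1 3.98 to 5.72 times that of Prkag2, while Prkab2 was at 0.465 to 0.677 of Prkab1. Some Prkag1 reads may belong to B130046B21Rik, as given above, and lengths are those of the annotated transcripts. The alpha2 share of the alpha transcripts per kilobase was 80.4% ± 1.35 in AAV-CTRP9 hearts (SD, n = 4) and 77.5% ± 2.82 in AAV-Luc hearts (SD, n = 3), where Luc_614 had the lowest value, 74.3%. The beta2 share of beta was 36.5% ± 3.87 in AAV-CTRP9 hearts and 36.8% ± 1.95 in AAV-Luc hearts. The gamma1 share of gamma was 83.0% ± 1.46 in AAV-CTRP9 hearts and 81.0% ± 1.0 in AAV-Luc hearts.

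Ratios of isoforms within a heart do not depend on the scaling of the library. The log2 ratio of Prkaa2 to Prkaa1 was 2.94, 2.68, 2.89 and 2.74 in AAV-CTRP9 hearts, against 2.31, 2.68 and 2.72 in AAV-Luc hearts, a difference of 0.24 between the means, or 0.11 without Luc_614. The log2 ratio of Prkag1 to Prkag2 was 1.24, 1.17, 1.202 and 1.51 in AAV-CTRP9 hearts, against 1.17, 0.98 and 1.10 in AAV-Luc hearts. The gamma ratios of Luc_614 and CTRP9_610 almost met, at 1.167 and 1.166, and the other 3 AAV-CTRP9 hearts lay above all AAV-Luc hearts. The log2 ratio of Prkab2 to Prkab1 averaged 0.46 ± 0.24 in AAV-CTRP9 hearts (SD, n = 4) and 0.48 ± 0.12 in AAV-Luc hearts (SD, n = 3). All 3 ratios overlapped between the groups.

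The summed levels of each subunit family showed the same order in both groups. The gamma genes summed to 27.6 ± 0.50 CPM per kilobase in AAV-CTRP9 hearts (SD, n = 4) and 27.4 ± 3.24 in AAV-Luc hearts (SD, n = 3), and the beta genes to 18.5 ± 1.196 in AAV-CTRP9 hearts and 18.3 ± 0.509 in AAV-Luc hearts. The alpha genes, of which each complex needs 1, had the lowest sum, 12.1 ± 0.409 in AAV-CTRP9 hearts and 11.1 ± 1.92 in AAV-Luc hearts, with 8.92 CPM per kilobase in Luc_614.

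**Figure D3:**
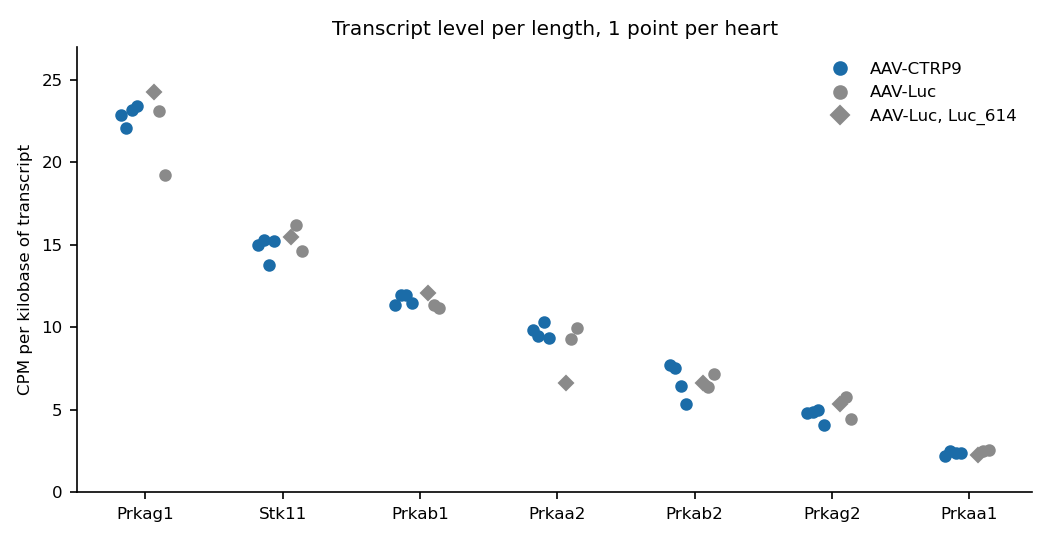
CPM per kilobase of transcript (vertical axis, from 0) for the 7 genes, ordered by their mean, with AAV-CTRP9 hearts in blue on the left and AAV-Luc hearts in grey on the right of each gene, 1 point per heart, and Luc_614 as a diamond. Prkag1 is highest (19.2 to 24.3) and Prkaa1 lowest (2.20 to 2.58) in every heart, and Prkaa2 falls to the level of Prkab2 in Luc_614 alone.

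For each member, the 3 genes with the most similar profile over the 7 hearts were named by the root mean square difference of log2 CPM, each gene centred on its own mean, among 13125 symbols with a mean of at least 1 CPM. Prkaa2 was nearest to Bmpr2 (0.033), Thoc1 (0.038) and Ppid (0.040), all low in Luc_614 by 0.45 to 0.48 and with a GC content of 41.0%, 40.2% and 41.4%. Prkag1 was nearest to Wdtc1 (0.015), Gcdh (0.017) and Arl6ip5 (0.017), all low in Luc_624 by 0.22 to 0.24. Prkab2 was nearest to Zc2hc1c (0.055), Cspg4 (0.062) and Vtn (0.065), which were low in CTRP9_620 as Prkab2 was, and Cspg4 is one of the listed markers of smooth muscle cells and pericytes. The nearest gene was Hipk1 for Prkaa1 (0.031), Sipa1 for Prkab1 (0.016), Ccnk for Prkag2 (0.045) and Ube2q1 for Stk11 (0.032). These points share libraries, depth and base composition, and with 7 hearts many genes have similar profiles.

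The rest of the pathway was read from 51 further genes in 10 lists, of which 49 were measured and 2, Camkk1 and Brsk2, were not in the table. None passed an adjusted p of 0.05 (limma, edgeR and DESeq2). At an unadjusted p of 0.05, 4 of 49 passed in limma, 2 higher and 2 lower, where 4.3% of all symbols passed as higher and 4.36% as lower. The edgeR test gave 2 of 49, where 1087 of all 13219 symbols passed, and DESeq2 gave 1, where 919 passed. The groups were apart for 2 of 49, 1 higher and 1 lower, against 4.49% of all symbols higher and 4.54% lower. The median log2 fold change was 0.05, against 0.03 over all symbols, with 32 of 49 genes above 0 where 57% of all symbols were.

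Among the partners of LKB1 (0 of 4 at an unadjusted p of 0.05), Cab39, a scaffold that holds LKB1 in its active form, had 39.1, 38.2, 38.3 and 38.9 CPM in AAV-CTRP9 hearts, against 32.2, 38.3 and 34.0 CPM in AAV-Luc hearts (log2 fold change 0.15, SE 0.08, limma adjusted p = 0.615). Its relative Cab39l had a log2 fold change of 0.14 (SE 0.11), or 0.06 without Luc_614. Of the other kinases that can act on AMPK (1 of 2), Map3k7, which encodes TAK1, had 24.6, 28.0, 27.2 and 26.5 CPM in AAV-CTRP9 hearts, against 18.0, 24.5 and 23.7 CPM in AAV-Luc hearts. The groups did not overlap for Map3k7, by the small gap between Luc_615 and CTRP9_609, and the log2 fold change was 0.28 (SE 0.11, unadjusted p = 0.0317, limma adjusted p = 0.557). Without Luc_614, it was 0.14 (SE 0.09, limma adjusted p = 0.535). Camkk2, the calcium-dependent AMPK kinase, had a log2 fold change of 0.02 (SE 0.11). Of the regulators of AMPK (0 of 6), the sestrin genes Sesn1 and Sesn2 had log2 fold changes of 0.11 (SE 0.08) and -0.28 (SE 0.25), and Sesn2 moved to -0.11 without Luc_614 and to -0.52 without CTRP9_620.

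LKB1 also activates kinases related to AMPK, and 1 of the 11 measured reached an unadjusted p of 0.05. Sik1, a salt-inducible kinase that restrains CREB-dependent transcription, had 11.97, 17.8, 21.9 and 12.7 CPM in AAV-CTRP9 hearts, against 15.1, 39.5 and 28.8 CPM in AAV-Luc hearts. Luc_614 lay among the AAV-CTRP9 hearts, and the other 2 AAV-Luc hearts lay above all of them. The log2 fold change of Sik1 was -0.72 (SE 0.30, limma adjusted p = 0.559) over all hearts and -1.11 (SE 0.19, limma adjusted p = 0.0102) without Luc_614, where 1.13% of all symbols passed the adjusted threshold. Without Luc_615, the highest heart, it was -0.42 (SE 0.29, limma adjusted p = 0.627). Sik1 was the only pathway gene that passed it in any of the AAV fits. Brsk1 had a log2 fold change of -0.38 (SE 0.22) at 1.01 to 1.82 CPM.

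Among substrates of AMPK in lipid metabolism, 0 of 5 reached an unadjusted p of 0.05. Srebf1, a transcription factor of lipid synthesis, had a log2 fold change of -0.09 (SE 0.12). Of the substrates in glucose metabolism (1 of 6), Tbc1d4, which encodes a brake on the movement of the glucose transporter GLUT4 to the cell surface, had 46.5, 49.4, 46.4 and 51.5 CPM in AAV-CTRP9 hearts, against 31.7, 42.3 and 46.9 CPM in AAV-Luc hearts. The log2 fold change of Tbc1d4 was 0.28 (SE 0.12, unadjusted p = 0.0388, limma adjusted p = 0.559), with Luc_614 lowest and Luc_624 among the AAV-CTRP9 hearts, and 0.12 (SE 0.08, limma adjusted p = 0.577) without Luc_614. Txnip, an inhibitor of glucose uptake, had 302, 278, 215 and 285 CPM in AAV-CTRP9 hearts, against 338, 276 and 335 CPM in AAV-Luc hearts (log2 fold change -0.23, SE 0.12, limma adjusted p = 0.614). Without CTRP9_611, its lowest heart, the log2 fold change was -0.13.

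Of the substrates in growth and autophagy (0 of 6), Foxo3 and Becn1 had log2 fold changes of 0.14 (SE 0.09) and 0.07 (SE 0.10). Of those in transcription, mitochondria and vessels (1 of 5), Crtc2, a coactivator of CREB that AMPK and SIK kinases keep in the cytoplasm, had 17.6, 18.7, 20.8 and 19.5 CPM in AAV-CTRP9 hearts, against 21.5, 21.9 and 22.5 CPM in AAV-Luc hearts. All 4 AAV-CTRP9 hearts lay below all 3 AAV-Luc hearts, and the log2 fold change of Crtc2 was -0.20 (SE 0.09, unadjusted p = 0.0386, limma adjusted p = 0.559), or -0.22 (SE 0.09) without Luc_614. With the trend of GC content and length removed it was -0.16 (limma adjusted p = 0.594) and no longer under an unadjusted p of 0.05. Ppargc1a, which encodes the mitochondrial coactivator PGC-1alpha and was picked out after its values were seen, had 51.1, 51.3, 52.3 and 49.7 CPM in AAV-CTRP9 hearts, against 38.2, 73.7 and 56.7 CPM in AAV-Luc hearts. The AAV-CTRP9 hearts of Ppargc1a lay close together between Luc_614 and the other 2 AAV-Luc hearts, and its log2 fold change was -0.09 (SE 0.17, limma adjusted p = 0.913) over all hearts and -0.34 (SE 0.09, limma adjusted p = 0.117) without Luc_614, but 0.14 without Luc_615. Nos3, the endothelial nitric oxide synthase, had a log2 fold change of 0.10 (SE 0.08). The metabolic genes raised by AMPK activity in muscle (0 of 3) had small positive values, such as 0.11 (SE 0.08) for Hk2 and 0.11 (SE 0.08) for Cpt1b. Prkag3, the gamma3 subunit best known from skeletal muscle, was at 1.602 to 2.74 CPM in AAV-CTRP9 hearts and 1.67 to 2.38 CPM in AAV-Luc hearts.

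**Figure D4:**
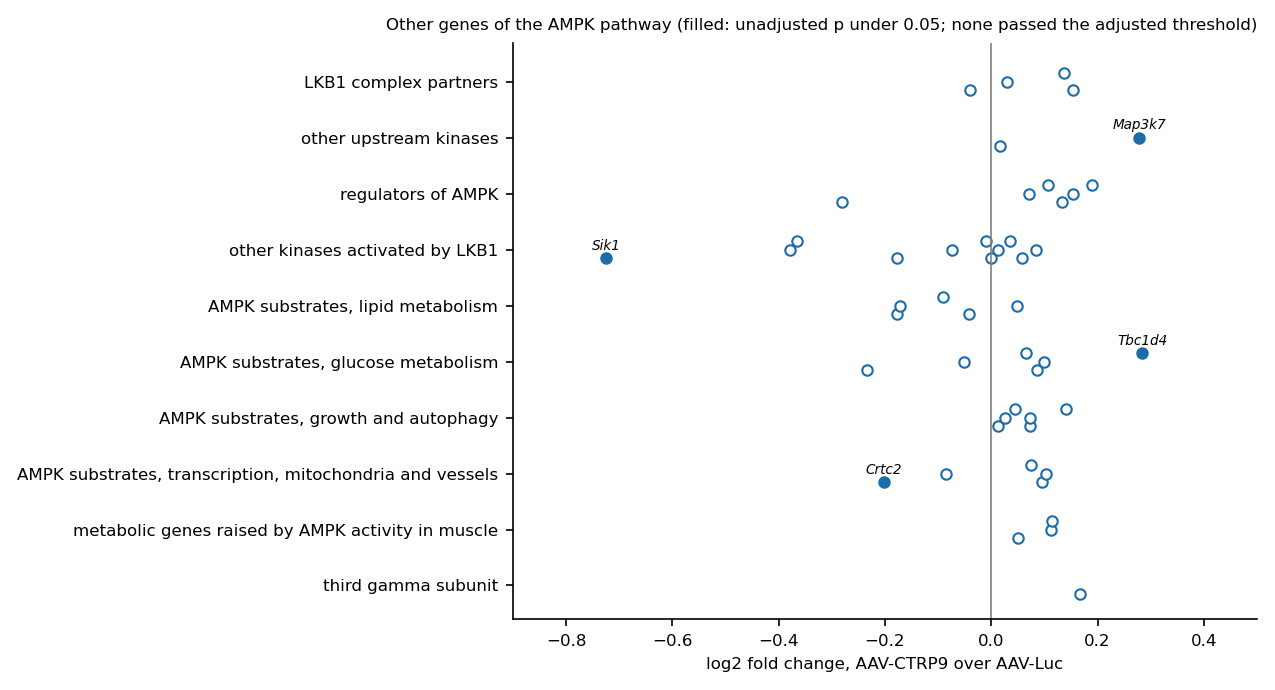
Log2 fold change, AAV-CTRP9 over AAV-Luc (horizontal axis), of 49 pathway genes in 10 lists (rows), 1 point per gene. Filled points had an unadjusted limma p under 0.05 (Map3k7, Tbc1d4, Crtc2 and Sik1), and no point passed the adjusted threshold. Most values lie close to 0, and Sik1 lies farthest from it at -0.72.

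For KO and WT hearts, the authors deposited only the transcripts that they had called at an unadjusted p under 0.05, and none of the 7 members is in it. Of the symbols of the AAV table, 8.67% were listed there. Levels of the members in KO and WT hearts are therefore not given here, and their absence from a list of this kind does not show that they were alike in both groups. Library totals were 15587701 to 18959587 reads in KO hearts and 14978278 to 18377715 reads in WT hearts. C1qtnf9 had 3 reads over the KO hearts and 1476 over the WT hearts. Xist, which marks the inactive X chromosome of females, had 7, 1, 1 and 47 reads in KO libraries, against 851, 147 and 0 in WT libraries, although the methods give male mice. The part of this in the values below was not tested.

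Of the 51 pathway genes, 4 were listed, all of them AMPK substrates, and their values describe genes chosen on these same hearts. Crtc2 had 314, 316, 313 and 324 normalized counts in KO hearts, against 405, 380 and 396 in WT hearts. All 4 KO hearts lay below all 3 WT hearts, with a log2 fold change of -0.31 (SE 0.07). The groups did not overlap for 66.9% of the listed symbols. Tsc2, which encodes a brake on mTORC1, had 2090, 2025, 2069 and 1918 normalized counts in KO hearts, against 2313, 2420 and 2234 in WT hearts (log2 fold change -0.20, SE 0.07). Gys1, the muscle glycogen synthase, had 2293, 2119, 2530 and 2405 normalized counts in KO hearts, against 2598, 2676 and 2718 in WT hearts (log2 fold change -0.19, SE 0.08). By normalized counts, both were lower in every KO heart than in every WT heart. Scaled to library totals alone, the Gys1 groups overlapped and those of Tsc2 and Crtc2 did not. Pfkfb2, whose product drives glycolysis in the heart, had 836, 623, 557 and 694 normalized counts in KO hearts, against 556, 617 and 503 in WT hearts, which overlap (log2 fold change 0.28, SE 0.13). Of the listed symbols, 38.9% were higher in KO, and the median log2 fold change was -0.23.

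These values depend on the scaling, and DESeq2 and TMM factors could be estimated only on the listed genes. With library totals as the only scaling, the median of the listed symbols was -0.18. The log2 fold change was then -0.27 for Crtc2, -0.15 for Tsc2, -0.14 for Gys1 and 0.32 for Pfkfb2. With DESeq2's own size factors the median of the listed symbols was -0.11, and the log2 fold change was -0.20 for Crtc2, -0.08 for Tsc2, -0.07 for Gys1 and 0.39 for Pfkfb2. With the authors' factors, edgeR called Crtc2, Tsc2 and Gys1 (adjusted p = 0.0181, 0.0283 and 0.0355), as it called 93.5% of the listed symbols. DESeq2 did not call them (adjusted p = 0.101, 0.251 and 0.39). Pfkfb2 went the other way, not called with the authors' factors (edgeR adjusted p = 0.0535) but called with DESeq2 (adjusted p = 0.0103). By library totals and by TMM factors, Pfkfb2 was called too (edgeR adjusted p = 0.0377 and 0.0203), while Tsc2 and Gys1 were not. Of the 1230 listed symbols, 955 were called by library totals, 652 by TMM factors and 632 by DESeq2. The list was chosen by p on these same hearts, so these adjusted p-values describe it and are no test. In the AAV experiment, which shares no hearts with this one, the log2 fold changes of Tsc2, Gys1 and Pfkfb2 were 0.05 (SE 0.07), 0.06 (SE 0.08) and 0.09 (SE 0.13), and that of Pfkfb2 turned to -0.09 without Luc_614. Crtc2 was lower in KO than in WT hearts and also lower in AAV-CTRP9 than in AAV-Luc hearts. It passed no adjusted threshold in the AAV experiment. In the KO experiment, edgeR called Crtc2 with library totals and with TMM factors too (adjusted p = 0.0199 and 0.0391), as it called 955 and 652 of the listed symbols. DESeq2 did not call Crtc2.

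**Figure D5:**
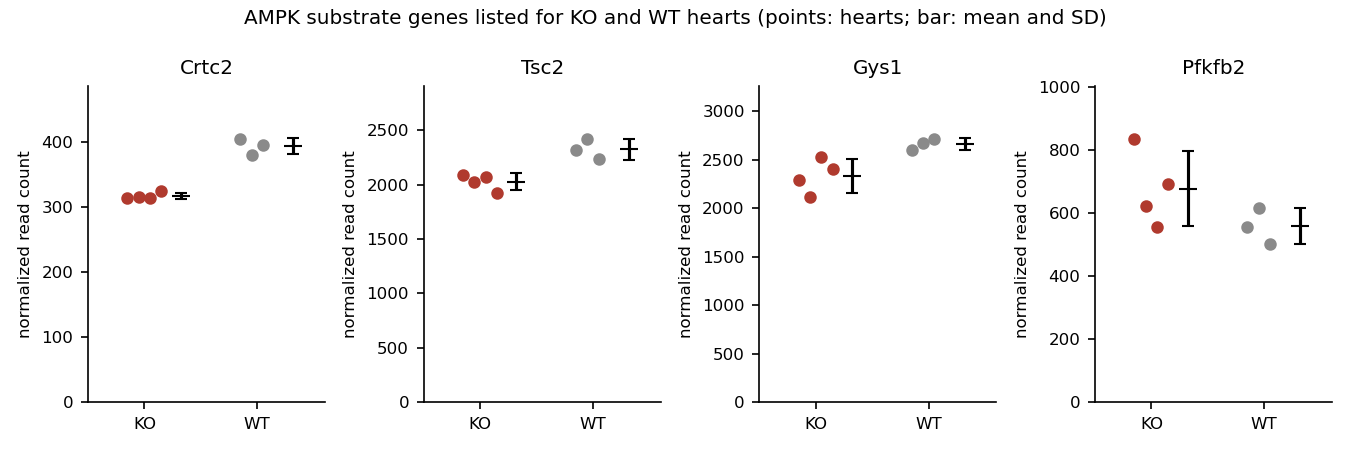
Normalized read count (vertical axes, from 0) of the 4 AMPK substrate genes listed for the knock-out experiment, in 4 KO hearts (red, left) and 3 WT hearts (grey, right), 1 point per heart, with the mean and SD beside the points. Crtc2, Tsc2 and Gys1 are lower in every KO heart by these counts (for Gys1 not by library totals alone), and the groups overlap for Pfkfb2. The genes were listed by the authors for an unadjusted p under 0.05 on these hearts.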

How the data were processed

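Whole hearts were measured by bulk mRNA sequencing. Reads were trimmed and aligned to mm10 with bowtie2 by the authors. The sources used here name neither the counting software nor its use of strand nor any version. In the AAV table, log2 CPM of each Ensembl transcript were deposited (25990 rows, 275 without a symbol), from which whole reads were recovered with a prior count of 1 (100% of 181930 values within 0.01). The library sizes given for AAV hearts are those the CPM refer to. In the AAV alternatives, library totals are the reads summed over all transcript rows. A read counted for several transcripts enters this sum, and the summed transcripts of a symbol, more than once. In the KO and WT table, raw counts of reads on each RefSeq transcript were deposited (2372 rows), but only where their unadjusted p was under 0.05. The deposited mean signal (normalized counts) and the deposited RPKM sum gave the factors and library totals of the authors. Their own fold changes and p-values, and 14 further columns of per-sample values, were not used. KO and WT columns could not be tied to single mice and keep the order of the table.

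The row with the highest mean level stood for each symbol. AAV groups were compared with limma 3.58.1 on log2 CPM (intensity trend, 13219 symbols) and KO with WT by the quasi-likelihood test of edgeR 4.0.16 (1230 symbols), both with Benjamini-Hochberg adjustment at 0.05 in R 4.3.3. A log2 fold change is on the log2 CPM scale with a prior count of 1 for AAV hearts. Alternatives were edgeR, DESeq2 1.42.0, library totals, TMM factors, a prior count of 0.1, a mean CPM of at least 1, a mean count of at least 10, summed or second transcripts, removal of GC content and length trends, and each heart left out. Scripts were tested on simulated data. GC content, lengths, positions and sequences are from GENCODE M21 on GRCm38, with transcripts matched by identifier without version. Replicates are separate mice, numbered by accession order only. From the pathway lists, the up to 2 genes with the smallest p in each list and every gene listed for KO and WT were named, except 1 gene that is not reported here. Members and lists were chosen with earlier results of these data known. Figures were drawn with matplotlib 3.10.9.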

Additional observations from a re-analysis of the deposited data

Results flagged for a closer look

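Of 34 groups of 4 hearts tested for an extreme heart (the 7 members and the named genes in AAV-CTRP9 or KO hearts), 2 had one. Foxo3 was at 38.2 CPM in CTRP9_611, while the other AAV-CTRP9 hearts had 45.8 to 47.1 CPM. Tsc2 was at 76.2 CPM in the same heart, CTRP9_611, while the other AAV-CTRP9 hearts had 82.1 to 83.1 CPM. The distance to the nearest heart was 0.865 of the range of the group for Foxo3 and 0.851 for Tsc2, above the 95% limit of Dixon's test for 4 values. Chance alone gives such a heart in about 1 of 20 groups.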

How the results depend on the processing

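No member passed the adjusted threshold in any setting. Over all symbols, the AAV comparison called 2 symbols as reported, against 61 with DESeq2, 0 without the intensity trend, 1 with library totals, 0 with summed transcripts, 6 with the GC content and length trend removed, and 0 to 150 with a heart left out (150 without Luc_614). At an unadjusted p of 0.05, library totals as the only scaling gave 263 higher and 807 lower symbols, against 569 and 577 as reported. The KO comparison called 1150 listed symbols (452 higher and 698 lower in KO), against 652 with TMM factors (476 and 176), 632 with DESeq2 (475 and 157), and 338 to 933 with a heart left out. Some log2 fold changes turned sign. Without Luc_614, 8 of the 49 pathway genes did, among them Fnip1 (0.19 over all hearts, -0.10 without it), Sesn3 (0.15 and -0.11) and Pfkfb2. Others of the 8 lay close to 0 in both fits, such as Mark4 (-0.0003 and 0.009). The share of all symbols that turned sign is not given here. With a heart left out, the lowest and highest values were -0.0053 and 0.053 for Prkab1, -0.076 and 0.101 for Prkab2, -0.047 and 0.121 for Prkag1, -0.030 and 0.086 for Camkk2, -0.0097 and 0.134 for Becn1, -0.093 and 0.226 for Pfkfb2, and -0.339 and 0.135 for Ppargc1a. Prkab1 was -0.031 and Tsc2 -0.0046 with library totals, and Camkk2 was -0.034 with library totals and -0.018 with summed transcripts. The cause of these moves was not tested, beyond Luc_614 and its trend with GC content. With 3 and 4 hearts and 241 to 2341 reads per member and heart, changes inside the intervals given for each gene remain possible. These intervals do not say which changes would have been detected. No paired analysis was possible because the replicate numbers only follow the order of accessions.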
